A study of Mus musculus with 8 samples.

Results

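The genes described here encode the constitutive 26S proteasome, the complex that degrades most ubiquitin-tagged proteins of the cell. They comprise 14 subunits of the 20S core, 17 subunits of the 19S regulatory particle, 3 chaperones that assemble the 19S particle, the alternative activators Psme3 and Psme4, and the core maturation factor Pomp. They were taken by gene symbol from the standard composition of the complex, with the interferon-inducible subunits left out. The 19S subunit genes Sem1 and Adrm1 were not among them and are given with the other pathway genes. All 37 were found among the 55487 genes of the table. RNA had been sequenced from colon intestinal epithelial cells of C57BL/6J mice, with 4 libraries labelled wild type (WT) and 4 labelled PIM1+/-. The label PIM1+/- is read here as a heterozygous genotype at Pim1, a serine/threonine kinase gene. The sources used here do not give the structure of the altered allele, the tissues in which it is altered, the age of the mice or any treatment. The labels do not say that each library came from a separate animal, so p-values measure only the spread between these libraries.

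The 20S core is a barrel of stacked rings. Outer alpha rings form a gated entry, and inner beta rings hold the catalytic sites. The 19S particle caps the barrel, where a ring of ATPases unfolds the substrate and a lid removes its ubiquitin chain. In epithelium exposed to interferon gamma, the catalytic subunits can be replaced by inducible counterparts that favour peptides for MHC class I. The subunits are needed in fixed proportions, and their genes are known to respond together to the transcription factor Nfe2l1 when proteasome activity is short.

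Values were in TPM, a unit in which reads are divided by gene length and each library is scaled to a fixed sum. The unit does not carry the number of reads, so depth is unknown here and no counting interval can be given. The 8 libraries summed to between 990958 and 992187 TPM. Pim1 itself measured 8.79, 7.86, 5.72 and 8.83 TPM in WT libraries 1 to 4 and 7.97, 7.23, 5.64 and 5.84 TPM in PIM1+/- libraries 1 to 4 (limma adjusted p = 0.411), so the transcript did not separate the genotypes and the libraries are named by their labels. Epithelial markers dominated every library, with 10 genes such as Epcam and Krt8 summing to 18023 to 23507 TPM in WT libraries and 27147 to 33330 TPM in PIM1+/- libraries, and 7 of the 10 higher. Markers of other cells were low, and those of lymphocytes, myeloid cells and red blood cells moved with genotype. Higher here means called by limma as defined below, as were 8.93% of all genes tested. The 12 markers of T, NK and intraepithelial lymphocytes summed to 13.3 to 26.4 TPM in WT libraries and 47.7 to 114 TPM in PIM1+/- libraries (9 of 10 tested higher), and 12 myeloid markers to 3.59 to 5.90 against 15.6 to 20.2 TPM (3 of 4 tested higher). Of 4 red blood cell genes, 2 of 3 tested were higher (5.88 to 14.6 against 20.9 to 27.9 TPM). Of the B cell and endothelial markers 2 and 1 were tested and 0 were called, and the sums of both lists overlapped between genotypes. The fibroblast and smooth muscle markers were too low to be tested, and Lum was at 0 in every library. The share of TPM in mitochondrially encoded transcripts also differed, at 16.1% to 18.4% in WT and 12.5% to 13.7% in PIM1+/- libraries. The part of these differences in the proteasome values was not tested beyond the rescaled values given at the end, and in bulk RNA more cells of a type and more RNA per cell cannot be told apart.

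The question was whether transcripts of the constitutive proteasome differ between PIM1+/- and WT libraries. Transcripts of the particle's own subunits were modestly higher in PIM1+/- libraries, across the core, the ATPase ring and the lid. Of the 37 genes, 19 rose and 0 fell, all of them among the 31 subunits of the 20S and 19S particles. Fold changes of those 31 subunits spanned only 1.06 to 1.33. Of the 6 chaperone, activator and maturation genes 0 passed the test, with 1 at an unadjusted p below 0.05. Their log2 fold changes ran from -0.14 to 0.29 and were above 0 for 5 of the 6. For so few genes, 0 called is near the share of all genes given below. Calls are those of limma on log2(TPM + 1) with Benjamini-Hochberg adjustment over the 12760 genes that reached 1 TPM in 4 or more libraries, at an adjusted p of 0.05. All 37 genes passed that filter. Over all genes tested, 8.93% were called higher and 8.54% lower in PIM1+/- libraries.

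The median log2 fold change of the 37 genes (PIM1+/- over WT, on the log2(TPM + 1) scale) was 0.25, against -0.01 for all genes tested. It was above 0 for 36 of the 37 genes, a position held by 48.0% of all genes tested. For 25 of the 37 genes, every PIM1+/- library lay above every WT library, as it did for 11.9% of all genes tested. The reverse arrangement was found for 0 of the 37 and for 11.6% of all genes tested. At an unadjusted p of 0.05 in limma, 29 of the 37 passed, all of them with a log2 fold change above 0, as did 16.3% of all genes tested.

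**Figure D1:**
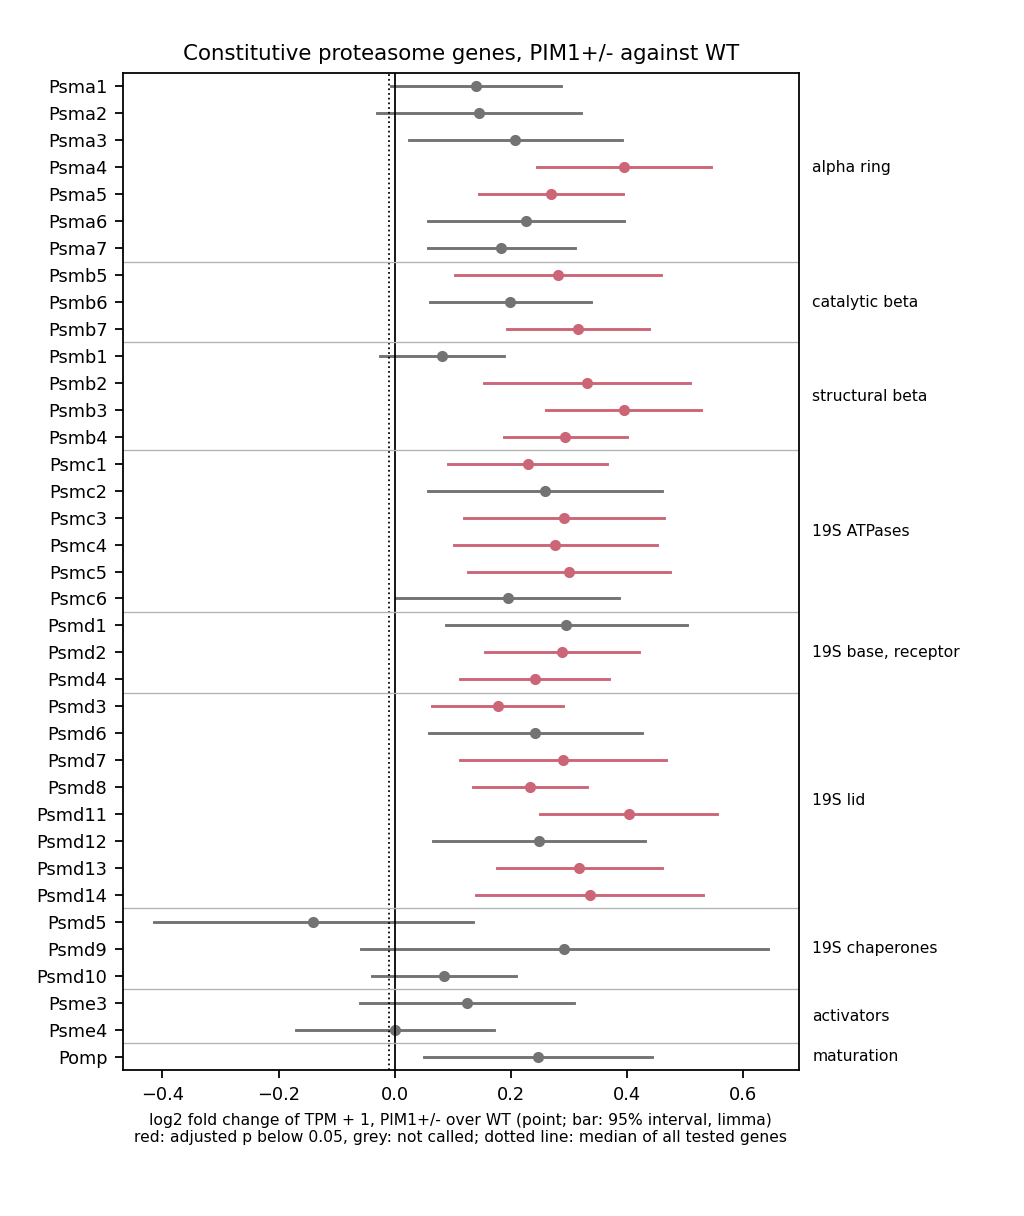
Log2 fold change of each of the 37 genes (horizontal axis, PIM1+/- over WT on the log2(TPM + 1) scale), grouped by role, with 95% limma intervals as bars and red for an adjusted p below 0.05. The 31 subunits all lie to the right of 0, with values from 0.08 to 0.40, and 12 of them are grey. The 6 chaperone, activator and maturation genes are all grey, and 5 of them also lie to the right of 0.

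Summed over the 37 genes, the level was 3183, 3267, 3240 and 2898 TPM in WT libraries 1 to 4 and 3991, 3652, 3604 and 3792 TPM in PIM1+/- libraries 1 to 4. The groups did not overlap. The mean went from 3147 ± 170 (SD, n = 4) to 3760 ± 174 TPM, a ratio of 1.19, or from 0.317% to 0.379% of all TPM. The core sum went from 1728 ± 91.6 to 2069 ± 90.2 TPM (ratio 1.20) and the 19S sum from 1127 ± 64.4 to 1360 ± 80.7 TPM (ratio 1.21). The balance between the particles differed by less than its spread, with 1.53 ± 0.04 TPM of core transcript per TPM of 19S transcript in WT and 1.52 ± 0.03 in PIM1+/- libraries. The assembly chaperones Psmd5, Psmd9 and Psmd10 together measured 53.2 ± 4.30 and 55.5 ± 3.10 TPM (ratio 1.04).

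**Figure D2:**
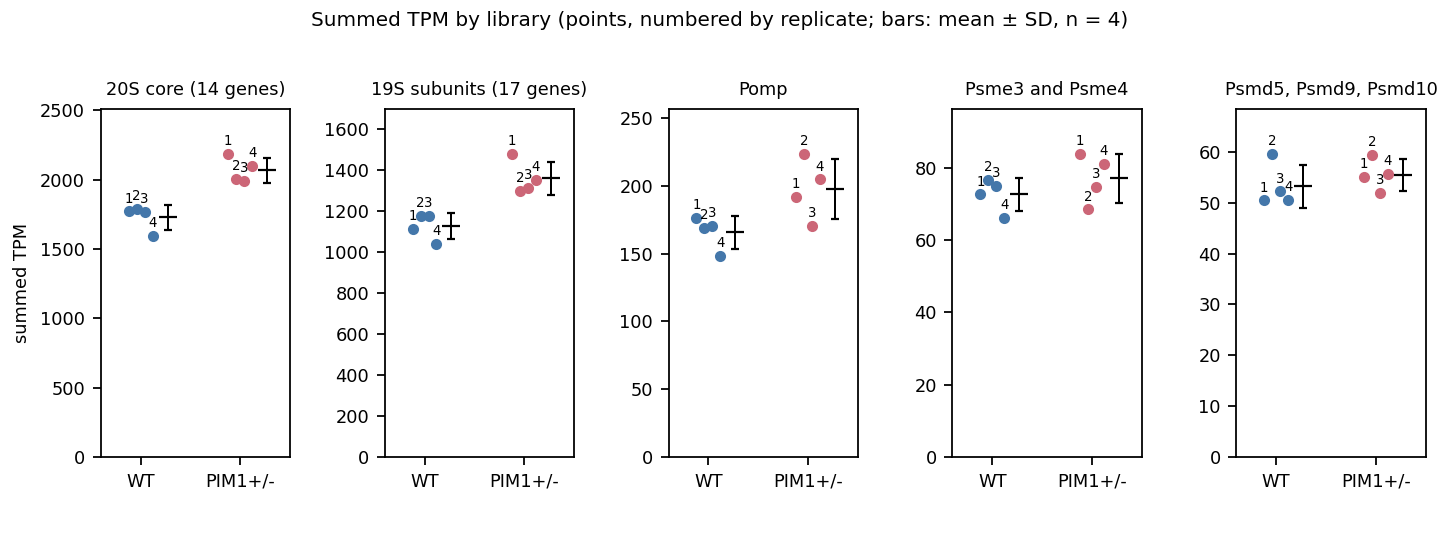
Summed TPM of each group of genes by library (vertical axes in TPM, starting at 0), with points numbered by replicate and bars for mean ± SD, n = 4. The core and 19S sums separate the genotypes, with ratios of 1.20 and 1.21, while the sums of the activators and of the assembly chaperones overlap.

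The libraries of a genotype were not alike in these genes. WT replicate 4 was the lowest WT library for 32 of the 37 genes, and PIM1+/- replicate 1 was the highest PIM1+/- library for 30. Genes that move together by library are not independent, which limits every count over the 37. In WT replicate 4 the median deviation from the genotype mean of log2(TPM + 1) was -0.12 over the 37 genes and -0.03 over all genes tested. In PIM1+/- replicate 1 these medians were 0.10 and 0.02. The same libraries held the highest and the lowest share of mitochondrially encoded transcripts, 18.4% in WT replicate 4 and 12.5% in PIM1+/- replicate 1, and the part of that in their proteasome values was not tested. Without both of them 7 of the 37 genes were called higher, all 7 among the 19, with a median of 0.18. Of all genes then tested, 4.48% were called higher. Leaving out 1 library at a time gave 10 to 17 genes called higher, with 10 without WT replicate 4 and 11 without WT replicate 1 or without PIM1+/- replicate 1. The share of all genes tested that were called higher was then 5.9% to 8%. The fit was repeated under 18 other settings in all (filters, pseudocount, scalings, a replicate block and libraries left out), and in each of them 0 of the 37 genes were called lower. Of the 19 called genes, Psma4, Psmb3, Psmb4, Psmb7, Psmd2 and Psmd11 passed in all 18.

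**Figure D3:**
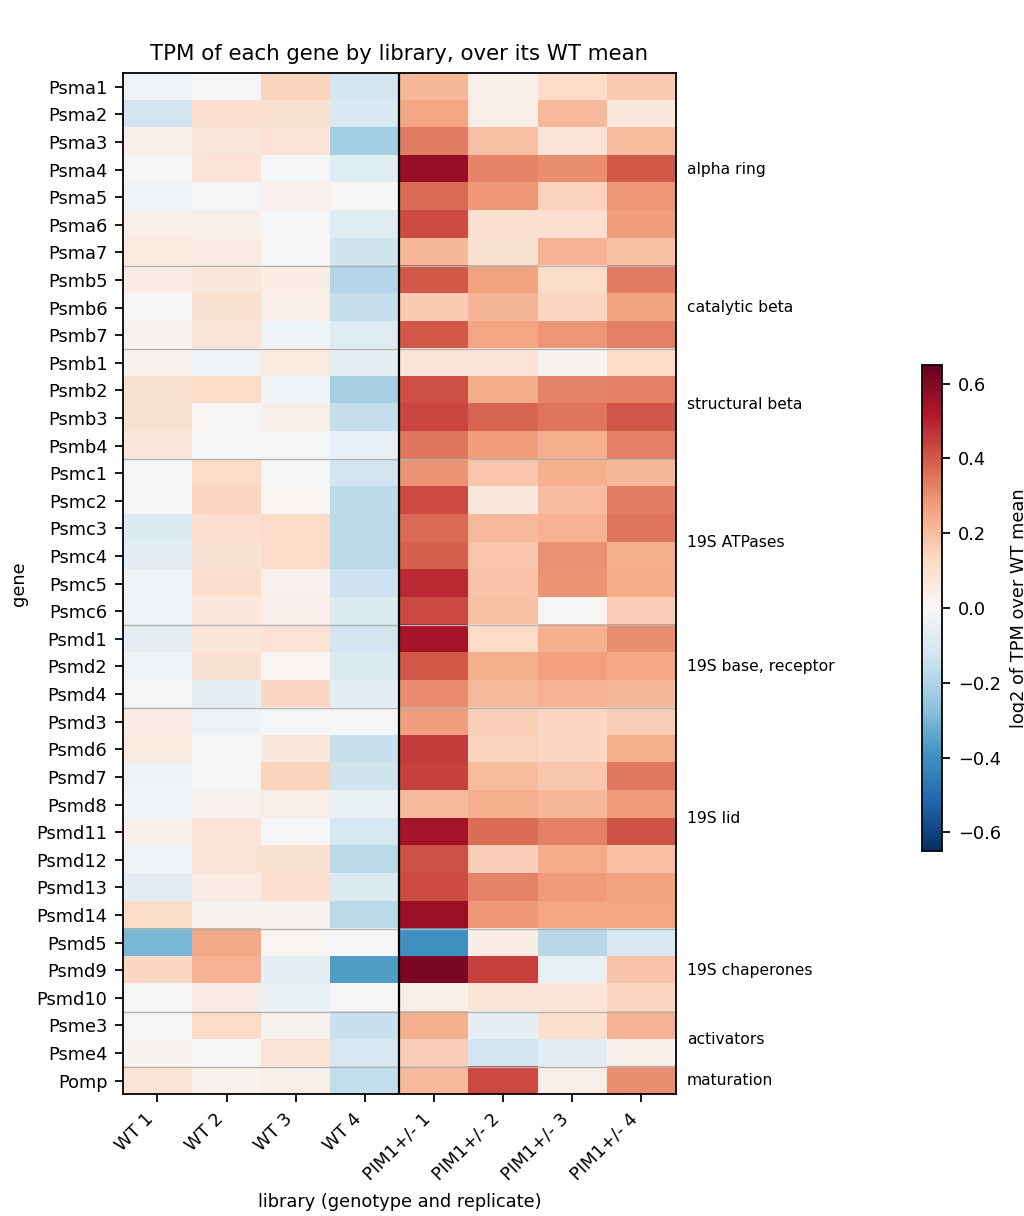
Level of each gene in each of the 8 libraries, as log2 of its TPM over the WT mean (colour, with red above and blue below that mean), with genes in rows by role and libraries in columns. The PIM1+/- columns are red for nearly all core and 19S subunits, strongest in replicate 1, and the WT replicate 4 column is the bluest of the WT columns.

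Among the 7 alpha subunits, which build the gated outer rings, 2 rose. Psma4 (ENSMUSG00000032301), whose protein tail helps to close the gate, lies on chromosome 9 from 54950790 to 54958030 (GRCm38, like all gene positions here). It measured 132, 140.4, 131 and 125 TPM in WT libraries 1 to 4 and 195, 165, 163 and 174 TPM in PIM1+/- libraries 1 to 4. The highest WT library was thus well below the lowest PIM1+/- library. Its log2 fold change was 0.40 ± 0.07 (SE, adjusted p = 0.00482). Psma5 rose by 0.27 ± 0.06 (adjusted p = 0.0111), from 72.6 ± 1.27 to 87.8 ± 5.47 TPM.

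The other alpha subunits did not pass the test. Psma7 had the highest level of the ring, at 188, 187, 181 and 165 TPM in WT libraries and 210, 193, 211 and 206 TPM in PIM1+/- libraries 1 to 4. Its groups did not overlap, and its log2 fold change of 0.18 ± 0.06 had an adjusted p of 0.0521. Psma2 had the lowest level, at 40.1, 47.2, 46.8 and 40.8 TPM in WT libraries and 52.2, 45.1, 50.7 and 45.8 TPM in PIM1+/- libraries 1 to 4 (0.15 ± 0.08, adjusted p = 0.231). Its groups overlapped, as did those of Psma1 (0.14) and Psma3 (0.21). Psma6 stood at 0.23 with no overlap (adjusted p = 0.0675).

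The value of Psma3 is uncertain, because an annotated processed pseudogene, Gm13835, matches a Psma3 transcript at 100% identity over its whole length and reads can be divided between them. Psma3 measured 73.1, 75.4, 76.3 and 61.3 TPM in WT libraries and 90.3, 81.6, 76.1 and 82.3 TPM in PIM1+/- libraries 1 to 4. Gm13835 measured 57.1, 44.4, 53.1 and 55.8 TPM in WT libraries and 84.5, 62.5, 57.6 and 65.4 TPM in PIM1+/- libraries 1 to 4. Their sum, computed after the values were seen, separated the genotypes where Psma3 alone did not. It went from 124 ± 6.66 to 150.04 ± 17.5 TPM (exact permutation p = 0.0286, two-sided, the smallest that 4 against 4 libraries allow). Of 24 pseudogene copies of 13 of the 37 genes, 2 reached a mean of 1 TPM, both of them copies of Psma3.

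The catalytic sites sit on Psmb5 (chymotrypsin-like), Psmb6 (caspase-like) and Psmb7 (trypsin-like). All 3 separated the genotypes without overlap, and 2 of them rose. Psmb5 (ENSMUSG00000022193, chromosome 14, 54614119 to 54618022) measured 123, 125, 123 and 104 TPM in WT libraries and 157, 142, 129 and 149.7 TPM in PIM1+/- libraries 1 to 4. WT replicate 4 stood apart below the other WT libraries, and PIM1+/- replicate 3 lay only just above the highest WT library. The log2 fold change was 0.28 ± 0.08 (adjusted p = 0.0385). Leaving out any of 6 single libraries (WT replicates 1, 3 and 4, PIM1+/- replicates 1, 2 and 4) put the adjusted p between 0.0626 and 0.0895.

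Psmb7 (ENSMUSG00000026750, chromosome 2, 38588036 to 38644087) measured 104, 108, 99.9 and 96.1 TPM in WT libraries and 134, 122, 124 and 128 TPM in PIM1+/- libraries 1 to 4. It rose by 0.32 ± 0.05 (adjusted p = 0.00525). Exons of Nek6, a mitotic kinase gene, overlap it on the opposite strand, and Nek6 rose as well, by 0.56 ± 0.06 from 27.8 to 41.4 TPM (adjusted p = 0.000799). The strand setting of the counting is not given, so reads of the overlap cannot be assigned, and their part in the Psmb7 value was not tested. Psmb6 (ENSMUSG00000018286, chromosome 11, 70525367 to 70527858), the most abundant of the catalytic genes, measured 155, 166, 159.6 and 139 TPM in WT libraries and 174, 181, 171 and 186 TPM in PIM1+/- libraries 1 to 4. Its log2 fold change was 0.20 ± 0.06 and its adjusted p 0.053 (0.0388 without WT replicate 2).

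The 4 noncatalytic beta subunits complete the inner rings, and 3 of them rose. Psmb3 (ENSMUSG00000069744, chromosome 11, 97703399 to 97713500), the most abundant of all 37 genes, measured 181, 169.99, 174 and 152 TPM in WT libraries and 229, 220.2, 215 and 225 TPM in PIM1+/- libraries 1 to 4. The PIM1+/- libraries were closely grouped and all far above WT, with a log2 fold change of 0.39 ± 0.06 (adjusted p = 0.00293). Psmb2 (ENSMUSG00000028837, chromosome 4, 126677630 to 126709714) measured 142, 144, 129.8 and 114 TPM in WT libraries and 177, 157, 165 and 166 TPM in PIM1+/- libraries 1 to 4. WT replicate 4 was again the lowest. Psmb2 rose by 0.33 ± 0.08 (adjusted p = 0.0204). Its adjusted p was 0.0507 with WT replicate 3 left out and 0.0511 with PIM1+/- replicate 1 left out.

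Psmb4 rose by 0.29 ± 0.05 (adjusted p = 0.00376), from 172 ± 6.14 to 211 ± 7.29 TPM. Psmb1 had the smallest log2 fold change of all 31 subunits, 0.08 ± 0.05 (adjusted p = 0.271). It measured 103, 100.5, 106 and 97.7 TPM in WT libraries and 108, 109, 103 and 111 TPM in PIM1+/- libraries 1 to 4. Replicate 3 of the PIM1+/- libraries lay within the WT range.

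The regulatory particle showed the same direction, with 12 of its 17 subunits called higher and 15 without overlap. In the ring of 6 ATPases, which unfolds substrates and opens the gate of the core, 4 rose: Psmc5 by 0.30, Psmc3 by 0.29, Psmc4 by 0.28 and Psmc1 by 0.23. Psmc3 had the highest level of the ring, at 109.9, 126, 127 and 104 TPM in WT libraries and 151, 136, 137 and 149 TPM in PIM1+/- libraries 1 to 4 (adjusted p = 0.0306). Exons of Slc39a13 overlap it on the opposite strand, at 5.71 and 5.60 TPM. Psmc2 had the lowest, at 51.0, 56.1, 51.3 and 45.2 TPM in WT libraries and 68.3, 53.6, 58.5 and 64.2 TPM in PIM1+/- libraries 1 to 4. Its groups overlapped through PIM1+/- replicate 2, and the adjusted p was 0.0768 at 0.26 ± 0.09 (0.0468 without that library). Psmc6 stood at 0.19 ± 0.09 (adjusted p = 0.149).

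Psmd2 and Psmd1 are the large scaffolds of the base, and Psmd4 is a receptor for ubiquitin chains. Psmd2 rose by 0.29 ± 0.06 (adjusted p = 0.011), from 81.6 ± 4.46 to 99.9 ± 5.37 TPM. Psmd4, the most abundant of these genes, measured 95.9, 92.6, 106 and 92.3 TPM in WT libraries and 119.9, 112, 113 and 112 TPM in PIM1+/- libraries 1 to 4. PIM1+/- replicate 1 stood apart above the other 3. Psmd4 rose by 0.24 ± 0.06 (adjusted p = 0.02, 0.0562 without WT replicate 1 and 0.0561 without WT replicate 4). Psmd1 measured 39.6, 43.7, 44.2 and 37.9 TPM in WT libraries and 60, 45.1, 48.6 and 51.0 TPM in PIM1+/- libraries 1 to 4, with no overlap but a gap of less than 1 TPM between PIM1+/- replicate 2 and WT replicate 3 (0.30 ± 0.09, adjusted p = 0.0549, and 0.0409 without PIM1+/- replicate 2).

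In the lid, all 8 genes among the 37 separated the genotypes without overlap, and 6 of them rose. The lid subunit gene Sem1, listed apart from the 37, overlapped between genotypes (0.14 ± 0.06, adjusted p = 0.124). Psmd11 (ENSMUSG00000017428, chromosome 11, 80428615 to 80473248) clamps the lid onto the core. It measured 33.5, 34.9, 32.5 and 30.2 TPM in WT libraries and 47.7, 42.1, 41.2 and 43.8 TPM in PIM1+/- libraries 1 to 4. Its log2 fold change of 0.40 ± 0.07 was the largest of the 37 (adjusted p = 0.0047).

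Psmd14 (ENSMUSG00000026914, chromosome 2, 61711694 to 61800376) is the deubiquitinase that cuts the chain from the substrate. It measured 52.2, 48.7, 48.8 and 42.5 TPM in WT libraries and 70.6, 58.5, 57.3 and 57.4 TPM in PIM1+/- libraries 1 to 4. PIM1+/- replicate 1 was far above the other 3, which lay between 57.3 and 58.5 TPM. Psmd14 rose by 0.34 ± 0.09 (adjusted p = 0.029). Without WT replicate 2, 3 or 4 or PIM1+/- replicate 2 the adjusted p lay between 0.0501 and 0.0698.

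Psmd13 (ENSMUSG00000025487, chromosome 7, 140881968 to 140898643) is a structural lid subunit. It measured 51.1, 55.8, 57.8 and 50.7 TPM in WT libraries and 72.2, 67.4, 65.2 and 64.6 TPM in PIM1+/- libraries 1 to 4, and rose by 0.32 ± 0.06 (adjusted p = 0.00975). Exons of Sirt3 overlap it on the opposite strand, and Sirt3 measured 22.1 and 20.3 TPM (adjusted p = 0.451). Psmd8, the most abundant lid gene, measured 104, 107, 108 and 102 TPM in WT libraries and 122, 124, 122 and 127 TPM in PIM1+/- libraries 1 to 4. The genotypes were far apart relative to the spread within each, and the rise of 0.23 ± 0.04 had an adjusted p of 0.00781.

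Psmd7, the partner of Psmd14, rose by 0.29 ± 0.08 (adjusted p = 0.0346), and Psmd3 by 0.18 ± 0.05 (adjusted p = 0.0396). Psmd12, the least abundant lid gene, measured 32.2, 35.0, 35.1 and 29.1 TPM in WT libraries and 43.8, 36.7, 38.8 and 37.6 TPM in PIM1+/- libraries 1 to 4 (0.25 ± 0.08, adjusted p = 0.063). Psmd6 stood at 0.24 ± 0.08 (adjusted p = 0.0711). Of the 19 called genes, Psma4, Psma5, Psmb3, Psmb4, Psmb7, Psmd2, Psmd8, Psmd11 and Psmd13 passed without any 1 of the 8 libraries. The calls of Psmc1, Psmc3, Psmc4, Psmc5, Psmd3, Psmd4 and Psmd7 each ended when any of 2 to 8 of the 8 single libraries was left out. Those of Psmd3 ended with each library, and those of Psmc1 with each but WT replicate 2.

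The chaperones of 19S assembly, which leave before the particle is complete, did not pass the test in either direction. Psmd10, also known as gankyrin, measured 21.5, 22.4, 21.0 and 21.8 TPM in WT libraries and 22.3, 23.1, 23.1 and 23.9 TPM in PIM1+/- libraries 1 to 4 (0.09 ± 0.05, adjusted p = 0.32). Psmd9 had the lowest level of all 37 genes, at 12.8, 13.6, 11.2 and 9.06 TPM in WT libraries and 17.8, 15.9, 11.3 and 13.2 TPM in PIM1+/- libraries 1 to 4 (0.29 ± 0.16, adjusted p = 0.229). Psmd5 was the single gene with a log2 fold change below 0, at -0.14 ± 0.12 (95% interval -0.42 to 0.14, adjusted p = 0.468).

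The alternative activators open the core without ubiquitin or ATP. Psme3, a nuclear activator, measured 46.2, 50.7, 47.3 and 42.1 TPM in WT libraries and 54.6, 44.6, 49.99 and 54.4 TPM in PIM1+/- libraries 1 to 4 (0.12 ± 0.08, adjusted p = 0.33). Psme4, also nuclear, measured 26.5, 26.1, 27.8 and 24.2 TPM in WT libraries and 29.2, 24.0, 24.9 and 26.8 TPM in PIM1+/- libraries 1 to 4. Its log2 fold change was 0.00 ± 0.08 (95% interval -0.17 to 0.17), and the sign turned with the scaling. The groups of both genes overlapped. Pomp, which guides the joining of core precursors and is degraded by the finished core, measured 176, 169, 171 and 148 TPM in WT libraries and 192, 223, 170.5 and 205 TPM in PIM1+/- libraries 1 to 4. PIM1+/- replicate 3 lay within the WT range, and the difference of 0.25 ± 0.09 had an adjusted p of 0.0823 (0.0339 without that library).

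Each catalytic subunit has an inducible counterpart, and the constitutive rise was small beside theirs. Psmb8, which takes the place of Psmb5, measured 47.1, 45.5, 28.2 and 34.5 TPM in WT libraries and 207, 169.7, 175 and 197 TPM in PIM1+/- libraries 1 to 4. Psmb9, which takes the place of Psmb6, measured 18.6, 27.2, 12.9 and 17.8 TPM in WT libraries and 91.0, 71.9, 72.1 and 84.7 TPM in PIM1+/- libraries 1 to 4. Psmb10, which takes the place of Psmb7, measured 111, 133, 96.1 and 112 TPM in WT libraries and 224, 206, 209.9 and 212 TPM in PIM1+/- libraries 1 to 4. All 3 rose, by 2.26, 2.05 and 0.91. In WT libraries the inducible genes made up 31.2% ± 3.32 of the summed catalytic TPM and in PIM1+/- libraries 51.6% ± 1.12.

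The difference was tested within libraries, as log2(TPM + 1) of the inducible minus that of the constitutive gene, which cancels a scaling factor of a library. Psmb8 gained 1.98 on Psmb5, with 0.230 to 0.384 TPM of Psmb8 per TPM of Psmb5 in WT and 1.19 to 1.36 in PIM1+/- libraries. Psmb9 gained 1.85 on Psmb6, and Psmb10 gained 0.60 on Psmb7. Psme1, a subunit of the interferon-inducible PA28 activator, rose by 0.72 and gained 0.59 on the activator Psme3. Each of these 4 differences was higher in 4 of 4 PIM1+/- libraries than in any WT library (exact permutation p = 0.0286, two-sided, adjusted over the 5 pairs p = 0.0357). Exons of Gm20496, Tap1 and Emc9 overlap Psmb8, Psmb9 and Psme1 in turn on the opposite strand. The part of those reads in these values was not tested. Psme2, the partner of Psme1, differed by 0.49 relative to Psme3, with 2 of 4 libraries above WT (exact permutation p = 0.0857, adjusted p = 0.0857). With an adjusted p of 0.0536 in limma, Psme2 itself did not pass (0.0292 without WT replicate 2 and 0.0250 without PIM1+/- replicate 3).

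**Figure D4:**
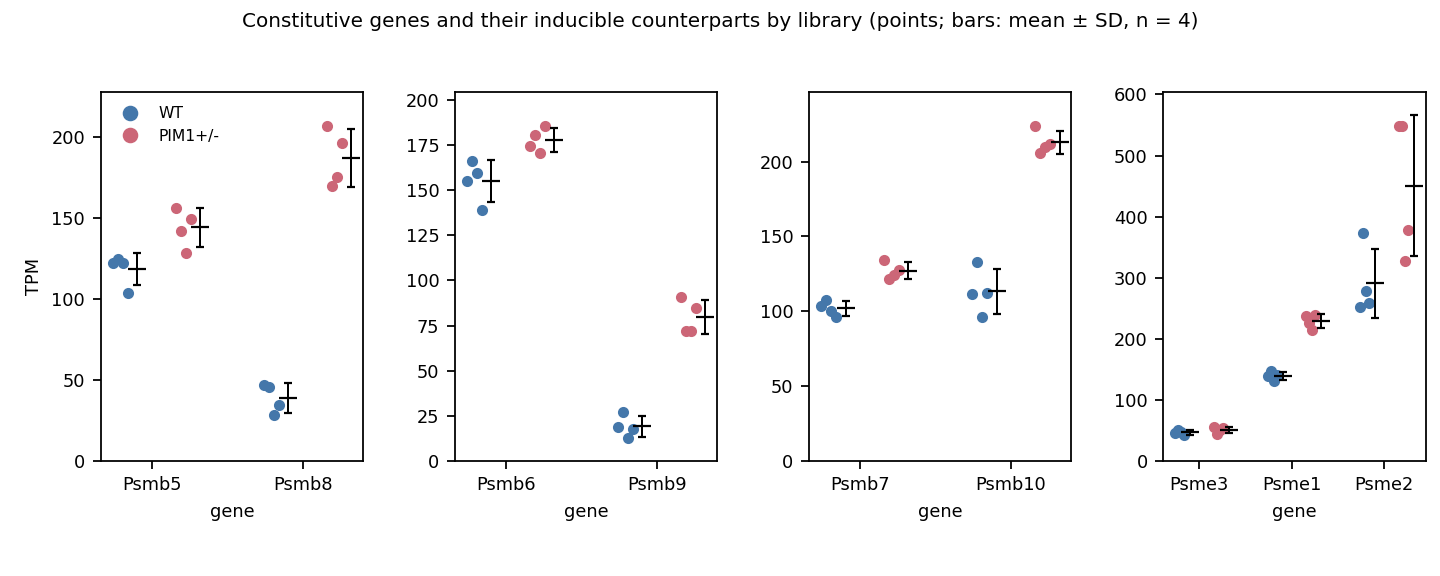
TPM of constitutive catalytic genes beside their inducible counterparts, and of Psme3 beside the inducible activator genes Psme1 and Psme2 (vertical axes in TPM, starting at 0). WT libraries are in blue, PIM1+/- libraries in red, and bars give mean ± SD, n = 4. Psmb8 lies below Psmb5 in WT and above it in PIM1+/- libraries, while Psmb9 stays below Psmb6 in both genotypes.

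A further list held 48 genes of the same pathway, of which 47 were matched in the table and 45 were tested. Apart from the inducible genes, 3 of 40 tested genes of this list rose (7.50%) and 1 fell (2.50%), with a median log2 fold change of 0.08. The share called higher was near the 8.93% of all genes tested, and that called lower was under the 8.54%. For 30 of the 40 the log2 fold change was above 0, as it was for 48.0% of all genes tested. Psmg4, a chaperone of 20S assembly, rose by 0.43 ± 0.07 (adjusted p = 0.0054) and was the single one of 4 such chaperones to pass. Psmg2 of that group measured 16.5 and 14.3 TPM (adjusted p = 0.201). Vcp, the p97 segregase that pulls ubiquitin-tagged proteins from membranes and complexes, rose by 0.23 ± 0.06 (adjusted p = 0.0326), and the main ubiquitin-activating enzyme gene Uba1 by 0.18 ± 0.05 (adjusted p = 0.0346). Of the 9 cofactors of p97, 0 passed, also at an unadjusted p of 0.05, while 8 had a log2 fold change above 0. The calls of Vcp and Uba1 ended without any of 6 and of 7 of the 8 single libraries.

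Of the 7 listed regulators of proteasome gene transcription, Vcp was the single one called, and 6 had a log2 fold change above 0. Nfe2l2 of this list measured 143 ± 7.96 TPM in WT libraries and 159.5 ± 8.96 TPM in PIM1+/- libraries, with overlap (0.16 ± 0.06, adjusted p = 0.102). Nfe2l1, the transcription factor of the proteasome recovery response, measured 65.7 ± 5.41 TPM in WT libraries and 57.2 ± 8.73 TPM in PIM1+/- libraries (-0.21 ± 0.11, adjusted p = 0.235). Ddi2, the protease that cleaves and activates the Nfe2l1 protein, fell by 0.23 on the log2 scale (SE 0.06, adjusted p = 0.0308), from 21.3 ± 0.72 to 18.0 ± 0.90 TPM, with every PIM1+/- library below every WT library. That call ended without any of 6 of the 8 single libraries. Exons of Rsc1a1 overlap Ddi2 on the same strand, and the part of shared reads in its value was not tested. Among 14 other subunits and partners of the 26S particle that were tested, 0 were called higher, beside 8.93% of all genes tested. For 9 of the 14 the log2 fold change was above 0. In limma 4 of the 14, with Ddi2 among them, had an unadjusted p below 0.05. The ubiquitin receptor Adrm1 (57.6 and 65.3 TPM) separated the genotypes without overlap, at 0.18 ± 0.07 (adjusted p = 0.131). The tissue-restricted subunit gene Psma8 was listed at 0 in every library, and Psmb11 did not exceed 0.03 TPM.

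Promoter sequence was examined because the subunit genes differed together. RefSeq promoters (GRCm38.p6) were found for 31 of the 37 genes and not for Psmb1, Psmb2, Psmb7, Psmc3, Psmd3 and Psmd7. The 250 bases before the start were searched on both strands for TGACNNNGC, the core of the antioxidant response element to which Nfe2l1 and its relatives bind, and for CCAAT, the box bound by NF-Y. TGACNNNGC was found in 5 of 31 (16.1%), namely Psmb5, Psmb6, Psmc6, Psmd12 and Psmd9, and in 11.5% of all 27025 genes with a promoter. CCAAT was found in 12 of 31 (38.7%) and in 37.5% of all genes. The TGAC of the first motif is shared with the sites of the AP-1 and CREB factors, and these shares are descriptions with no test. The 4 windows shown were chosen after the values and matches were seen, to show both catalytic genes with the first motif, the deubiquitinase gene with the second, and the gene with the largest log2 fold change, which has neither. Capitals mark the matches, each window is written on the gene's own strand, and in Psmd14 the capitals are CCAAT on the opposite strand. The windows are chr14:54617996-54618245 (minus strand) for Psmb5, chr11:70525107-70525356 (plus) for Psmb6, chr2:61711444-61711693 (plus) for Psmd14 and chr11:80428365-80428614 (plus) for Psmd11.
Psmb5: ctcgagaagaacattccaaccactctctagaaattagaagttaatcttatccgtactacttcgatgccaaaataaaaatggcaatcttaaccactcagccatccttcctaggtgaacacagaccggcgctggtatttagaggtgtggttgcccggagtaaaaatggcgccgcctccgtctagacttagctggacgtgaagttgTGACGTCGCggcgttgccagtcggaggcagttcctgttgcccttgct
Psmb6: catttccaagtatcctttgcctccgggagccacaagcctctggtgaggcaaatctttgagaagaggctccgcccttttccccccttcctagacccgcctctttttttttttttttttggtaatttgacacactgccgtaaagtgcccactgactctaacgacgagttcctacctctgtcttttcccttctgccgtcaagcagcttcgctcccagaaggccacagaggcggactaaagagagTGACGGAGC
Psmd14: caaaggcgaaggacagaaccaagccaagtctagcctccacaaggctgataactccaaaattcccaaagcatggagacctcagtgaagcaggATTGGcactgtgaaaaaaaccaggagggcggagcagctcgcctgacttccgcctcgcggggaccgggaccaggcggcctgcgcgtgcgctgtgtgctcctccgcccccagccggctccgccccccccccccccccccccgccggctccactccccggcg
Psmd11: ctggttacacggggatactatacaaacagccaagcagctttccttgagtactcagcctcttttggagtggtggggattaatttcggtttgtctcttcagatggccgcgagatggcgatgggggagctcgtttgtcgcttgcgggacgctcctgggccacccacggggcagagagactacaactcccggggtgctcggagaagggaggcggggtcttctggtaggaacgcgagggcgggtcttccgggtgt

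Distances are from the RefSeq start, the base after each window, which for Psmb5 and Psmb6 is not the GENCODE gene start given with their positions. In Psmb5 the match ends 38 bases before the RefSeq start, and in Psmb6 it ends at the last base before it. In Psmd14 the CCAAT box ends 154 bases before the start. Of the 5 genes with the first motif, Psmb5 rose by 0.28, while Psmb6, Psmc6, Psmd12 and Psmd9 stood at 0.20, 0.19, 0.25 and 0.29 and did not pass the test. Among all 37 genes 19 were called higher, and the median log2 fold change was 0.25. The part of the motif in these values was not tested.

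The scaling of TPM moved the counts more than their direction. Mitochondrially encoded transcripts and their annotated nuclear copies took 27.1% to 30.4% of TPM in WT libraries and 20.9% to 23.5% in PIM1+/- libraries. When both were left out and each library was rescaled, 8 of the 37 genes were called higher and 0 lower, beside 5.55% of all 13258 genes then tested called higher and 16.9% lower. Of the 37 genes, 12 separated the genotypes without overlap, as did 6.46% of all genes tested. The median of the 37 genes was then 0.14 and that of all genes -0.11. A scaling factor moves all genes of a library nearly alike on this scale, so the distance between these medians could hardly change with it. That distance was 0.260 as deposited and 0.255 to 0.261 under the other scalings. The summed TPM of the 37 genes did not overlap between genotypes under any of the 5 scalings examined, with ratios from 1.11 to 1.21. With both sets left out, the WT libraries summed to 4162 to 4481 TPM and the PIM1+/- libraries to 4669 to 5044 TPM.

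**Figure D5:**
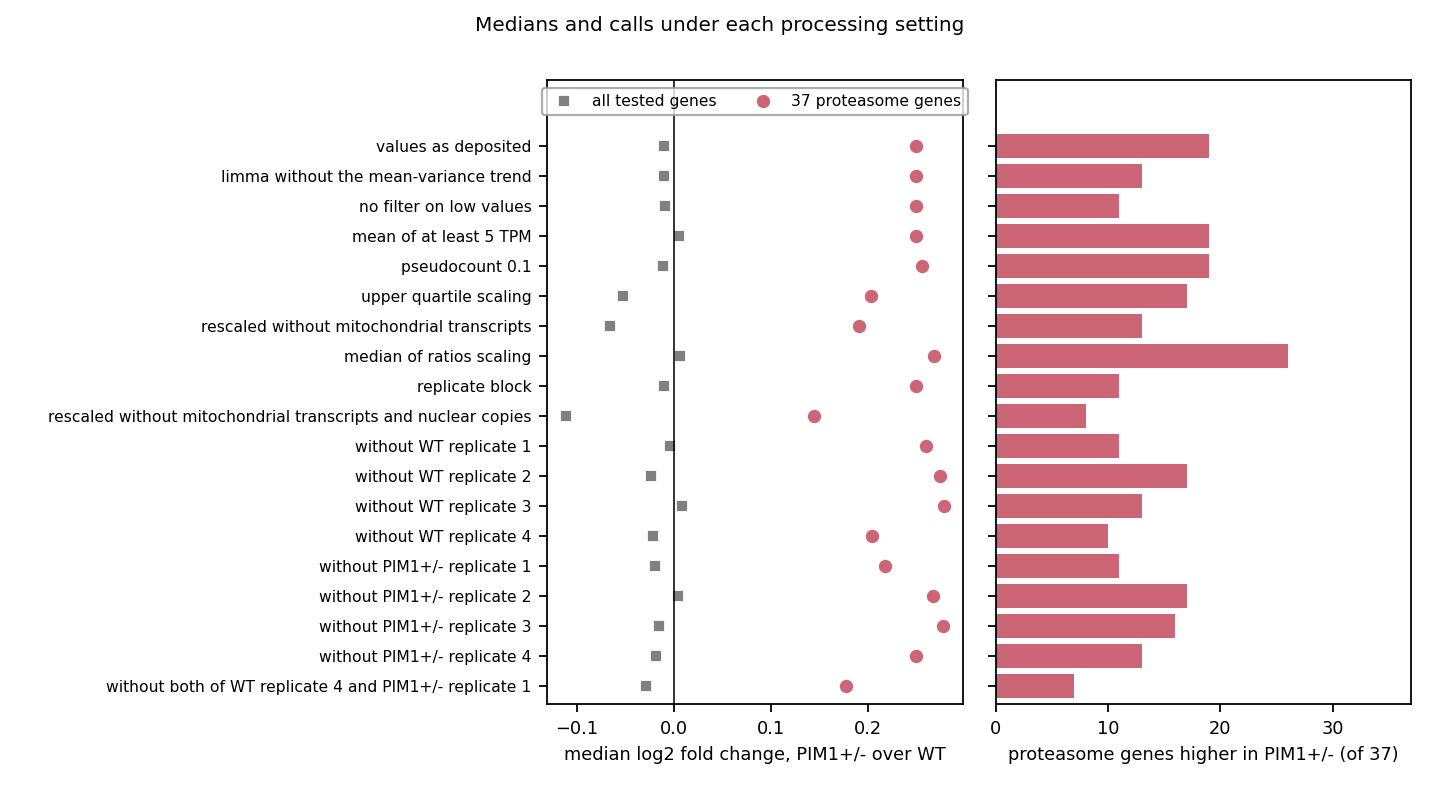
Median log2 fold change of the 37 genes and of all tested genes (left, horizontal axis) and number of the 37 genes called higher in PIM1+/- libraries (right, bars from 0), one line per processing setting. The median of the 37 genes runs from 0.14 to 0.28 and the number called from 7 to 26. The share of all tested genes called higher, not drawn, ran from 2.89% to 10.6%.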

How the data were processed

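The 8 libraries (4 WT, 4 PIM1+/-) held RNA extracted with TRIzol from colon epithelial cells, per the labels' protocols. TPM per gene had been computed by the authors with RSEM, per the series' design text, and deposited as 1 table rounded to hundredths. HISAT2, StringTie, edgeR and the build GRCm38.p6 are listed by the submitters' processing notes with no roles. The sources used here name no annotation release, strand setting, depth or tool version. TPM is scaled to a fixed sum, so a change in abundant transcripts moves all other values, and near-identical genes divide their reads by estimation. All per-sample columns were used (0 left out).

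A linear model on genotype was fitted to log2(TPM + 1) with limma 3.58.1 in R 4.3.3 (empirical Bayes with trend, two-sided). It covered the 12760 genes that reached 1 TPM in 4 or more of the 8 libraries. Because a gene could enter through either genotype, low genes of a single genotype were kept. Differences between the inducible genes and the constitutive genes set beside them were tested by exact permutation over libraries. The fit was tested on simulated data. Gene positions came from GENCODE M21, promoters from RefSeq, both GRCm38, and copies from BLAST+ 2.17.0 (at least 90% identity over 80% of length). The 250-base promoter window was picked after a 300-base window had also been read (TGACNNNGC in 6 of 31 and 14.0% of all genes, CCAAT in 12 of 31 and 41.1%). Figures were drawn with matplotlib 3.10.9.

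The members, gene lists and tests were chosen with earlier results of these data known. Every called gene is named, with values in every library for the 6 largest log2 fold changes, the catalytic subunits, Psme3, Psme4, Pomp and the highest and lowest mean TPM of each role. Of the other pathway genes, those called and the inducible catalytic and activator genes are named by rule. Psmg2, Nfe2l1, Nfe2l2, Adrm1, Sem1, Psma8, Psmb11, Nek6, Sirt3 and Gm13835 were chosen after their values were seen, as were the members given by fold change alone. Paaf1 was not matched.

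Alternatives were limma without trend, a pseudocount of 0.1, no filter, a filter on means under 5 TPM, upper quartile and median of ratios scaling, rescaling without mitochondrial transcripts, a replicate block, thresholds of 0.01 and 0.1, and each library left out. Rescaling also without nuclear copies, and leaving out WT replicate 4 with PIM1+/- replicate 1, were added after seeing the data.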

Additional observations from a re-analysis of the deposited data

Results flagged for a closer look

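In 3 of 84 groups of 4 libraries examined (1 gene in 1 genotype), a single library stood apart by Dixon's ratio of its gap to the group's range, and chance gives about 1 in 20 groups. Psmb5 was low in WT replicate 4, at 104 TPM (ratio 0.890). Psmd4 was high in PIM1+/- replicate 1, at 119.9 TPM (ratio 0.862). Psmd14 was high in the same library, at 70.6 TPM (ratio 0.917). These are the WT library in which most of the 37 genes were lowest and the PIM1+/- library in which most were highest. The adjusted p of Psmb5 in limma was 0.0799 without WT replicate 4, and without PIM1+/- replicate 1 those of Psmd4 and Psmd14 were 0.0482 and 0.0495.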

How the results depend on the processing

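The direction of the list held under all alternatives examined, with 0 of the 37 genes lower in each of the 20, while the number called higher depended on the setting. It was 19 as reported, 11 with no filter on low values, 11 with the replicate block, 8 after rescaling without mitochondrial transcripts and nuclear copies, 7 without both WT replicate 4 and PIM1+/- replicate 1, 7 at an adjusted p of 0.01, and 10 to 17 with 1 library left out. The share of all tested genes called higher moved too, from 8.93% as reported to 2.89% with no filter and 5.96% with the block. It was 5.55% after that rescaling, 4.48% without both libraries and 5.9% to 8% with 1 library left out. The cause of the changes in number was not tested. Under the remaining alternatives the number was 13 to 27. The median log2 fold change was 0.14 and the ratio of summed TPM 1.11 after rescaling without mitochondrial transcripts and nuclear copies, and the medians were otherwise 0.18 to 0.28.

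Signs turned for genes that were not called. Psme4 was at -0.045 under upper quartile scaling, -0.058 without mitochondrial transcripts, -0.11 without these and the nuclear copies, -0.086 without both libraries, and -0.051 to 0.040 with 1 library left out. Psmb1 and Psmd10 were at -0.027 and -0.019 without mitochondrial transcripts and nuclear copies.

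Same-numbered libraries did not deviate together (correlations over genes of -0.14, 0.03, -0.03 and -0.07, and 0 of 8 libraries correlated best with their own number), so the numbers were not taken as pairs. With the replicate block, the differences of Psmb8 against Psmb5, Psmb9 against Psmb6, Psmb10 against Psmb7 and Psme1 against Psme3 stayed at 1.98, 1.85, 0.60 and 0.59, with an adjusted exact p of 0.125, the smallest that 4 pairs allow. Psme2 passed in limma with the block (adjusted p = 0.0397). Without both libraries they were 1.99, 1.81, 0.63 and 0.66 (adjusted exact permutation p = 0.125, where 3 against 3 libraries allow no p below 0.1). With 1 library left out they were 1.83 to 2.07, 1.67 to 1.99, 0.53 to 0.65 and 0.54 to 0.64. Read depth is unknown, so its limit on low values cannot be given.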
